A study of Drosophila melanogaster with 93 samples.

Results

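The 40 genes examined here encode guidance molecules of the nervous system, of 18164 genes annotated on the 6 chromosome arms of *Drosophila melanogaster*. They are 14 *beat* and 8 *side* genes, and 18 genes of the other cues and receptors with which axons find their way: the Slit, Netrin, Plexin, Eph, Dscam and teneurin systems. The genes were chosen by name and family, with earlier results of these data known. Each was described by the percentage of its gene body, and of the window 3 kb on each side of its transcription start site (TSS window), that lay under peaks of trimethylated lysine 9 of histone H3 (H3K9me3) in each of 31 deposited peak lists. Chromatin had been purified from *fru P1* neurons, a population that directs reproductive behavior, and from *elav* neurons, by sequential ChIP. H3K9me3 was immunoprecipitated first, and fragments holding a biotin-tagged histone H2B (Chromatag) were then captured with streptavidin. For *fru P1* neurons each sex was sampled as pupae at 48hr APF (after puparium formation), as 1-day adults and as 10–12 day adults, and for *elav* neurons as 1-day adults, with 4 libraries per condition but 3 of 10–12 day females.

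In every group the Chromatag transgene was under UAS control and a UAS-Gal4 transgene was also present. The driver was fru P1-Gal4 in the *fru P1* groups and elav-Gal4, which is active in most neurons, in the *elav* groups. A replicate was made from many sex-sorted animals, so that each library is a pool. Whole pupae were used at 48hr APF and heads in adults, so stage and tissue cannot be told apart. The labels give no other difference in genotype between sexes or stages. The 4 *fru P1* lists of a sex and stage were called against 1 pooled input, so the spread between these replicates holds no variation of the input, while each *elav* list had an input of its own.

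H3K9me3 is laid down by histone methyltransferases and bound by heterochromatin protein 1, and is best known from the silent, repeat-rich chromatin around centromeres and on chromosome 4 of *Drosophila*. Beat and Side proteins are members of the immunoglobulin superfamily. Beat-Ia, the founding Beaten path protein, lets motor axons leave their bundle, and Sidestep, encoded by *side*, is a membrane protein of the target tissue that Beat-Ia recognizes. Their relatives pair with one another in the same way, for example Beat-V with Side-VI and Beat-II with Side-IV, and mark classes of neurons.

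Coverage by peaks is a share of length, not a level of expression, and the peaks were weak. The lists held 18036 to 28267 peaks per library, from 2119672 to 6306013 ChIP tags. Of the 12335 peaks in the 40 gene bodies, the median fold enrichment was 1.51, the highest was 2.48 (in *side-III*) and only 4.90% had a −log10 p of at least 2. Over all 738735 peaks the median was 1.51 and 6.59% reached that p. Peaks covered 31.4 to 35.3% of 2L, 2R, 3L and 3R in 1-day *fru P1* males and 28.9 to 32.6% in 1-day *fru P1* females, against 20.6 to 28.3% in all other conditions, so 1-day *fru P1* libraries stood above the rest before any single gene was considered. X was covered over 0.839 to 7.53% in male and 19.5 to 31.3% in female libraries. Chromosome 4 was covered over 8.42 to 21.5% in 1-day *fru P1* males and 6.39 to 11.2% in 1-day *fru P1* females, below 2L, 2R, 3L and 3R. Over all libraries it ranged from 6.39 to 41.2%, and in other conditions it was at times above those arms. Among marker genes, the 4 of neurons (*elav*, *nSyb*, *brp*, *Syt1*) had median gene body coverages of 9.38 to 22.1% over conditions. The 3 of glia (*repo*, *Gs2*, *Eaat1*) had 11.7 to 32.4% and the 2 of muscle (*Mhc*, *Act88F*) 16.3 to 56.1%. These are coverages of a repressive mark that measure no expression, so they cannot check the purity of the tissue.

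Differences were tested with limma over all genes, 16640 for gene bodies and 17752 for TSS windows, and a gene was called at a Benjamini-Hochberg adjusted p of 0.05 or less. All 40 members passed the filter for both measures. Their gene bodies had a median length of 40274 bp, against 1656 bp over all genes, and the shortest was *side-VII* with 5968 bp. All gene body medians and shares of calls given below for all genes thus come mostly from much shorter genes. The part of length in these comparisons was not tested. Averaged over the 31 libraries, *Dscam3* (43.1%), *beat-Vc* (42.2%) and *robo3* (41.6%) had the highest gene body coverage, and *PlexB* (5.83%), *Ten-a* (9.65%) and *unc-5* (15.0%) the lowest. In 28 members a peak lay in the gene body in every library, and introns were covered over a larger share than exons in 25 of 40 genes, 17 of 22 *beat* and *side* genes and 8 of 18 others.

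**Figure D1:**
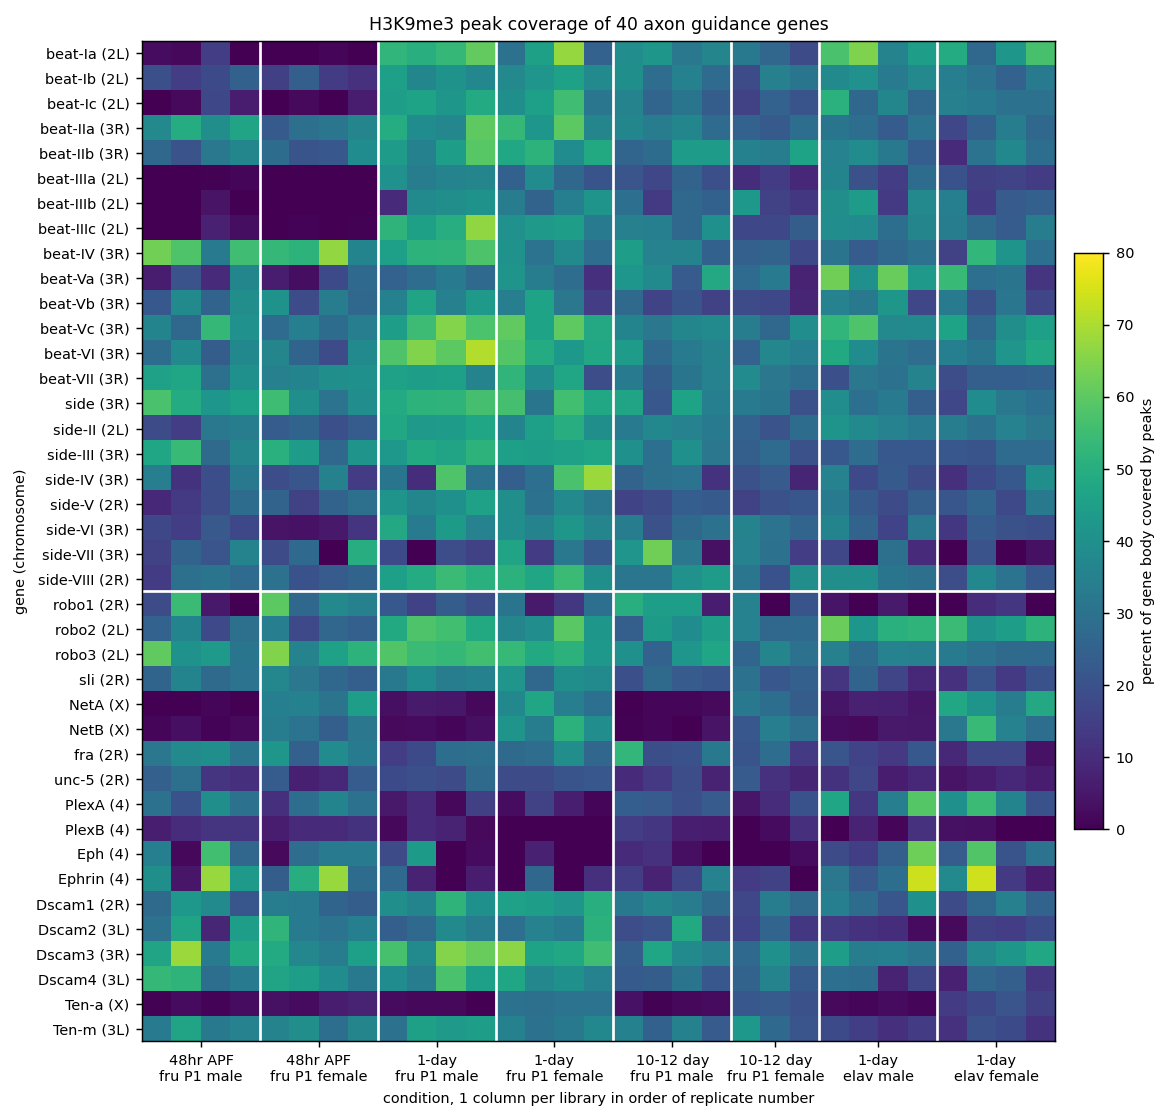
Percentage of the gene body of each of the 40 genes (rows) covered by H3K9me3 peaks in each of the 31 libraries (columns, grouped by condition), with color running from 0 to 80%. Apart from *beat-Ib*, the *beat* genes on 2L are near 0 in the 8 libraries from 48hr APF, and the 3 genes on X are near 0 in the 16 male libraries.

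The most pronounced pattern in the set was the near absence of H3K9me3 peaks from 5 *beat* genes on 2L at 48hr APF and their broad coverage in adults. These genes lie in a pair of clusters. The first holds *beat-Ib*, *beat-Ic* and *beat-Ia* (positions 15905134 to 16081684 of dm6), and the second holds *beat-IIIb*, *beat-IIIa* and *beat-IIIc* (16973091 to 17260734). In *fru P1* neurons, *beat-Ia*, *beat-Ic*, *beat-IIIa* and *beat-IIIc* gained 36.2 to 51.0 percentage points of gene body coverage in 1-day males and 27.8 to 41.7 points in 1-day females, relative to 48hr APF animals of the same sex. The numbers of ChIP tags overlapped between 1-day *fru P1* libraries (3856798 to 6306013) and those from 48hr APF (4009861 to 6295978). The pooled inputs held more tags in 1-day males (47601396) and females (52341980) than in 48hr APF males (42630701) and females (41654025). The part of depth in the gains was not tested. In pools of cells, a mark present in fewer cells and less of it per cell cannot be told apart.

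The sequences below are intronic stretches of 180 bases from 3 of these genes, shown because peaks covered them in most adult libraries and in none of the 8 libraries from 48hr APF. They are read from dm6 on the plus strand, and capitals mark the bases covered in the largest number of adult libraries. For *beat-Ia* (chr2L:16060334-16060513) this was 20 of 23 libraries over 32 bases, for *beat-IIIa* (chr2L:17153548-17153727) 18 of 23 over 137 bases and for *beat-IIIc* (chr2L:17201965-17202144) 18 of 23 over 160 bases.
beat-Ia: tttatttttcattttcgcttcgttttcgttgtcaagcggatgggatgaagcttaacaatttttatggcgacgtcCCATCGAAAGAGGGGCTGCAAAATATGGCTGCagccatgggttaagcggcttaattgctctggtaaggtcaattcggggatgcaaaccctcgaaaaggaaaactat
beat-IIIa: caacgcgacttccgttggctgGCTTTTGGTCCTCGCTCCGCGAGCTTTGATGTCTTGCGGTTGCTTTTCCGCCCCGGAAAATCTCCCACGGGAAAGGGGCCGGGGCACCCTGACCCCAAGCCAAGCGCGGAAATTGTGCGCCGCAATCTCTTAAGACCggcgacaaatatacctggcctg
beat-IIIc: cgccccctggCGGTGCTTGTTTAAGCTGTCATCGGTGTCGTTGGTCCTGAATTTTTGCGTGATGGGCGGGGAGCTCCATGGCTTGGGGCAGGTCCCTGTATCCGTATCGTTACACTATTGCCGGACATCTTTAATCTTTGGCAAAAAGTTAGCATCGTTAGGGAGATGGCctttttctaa
None of the 3 stretches is mostly repeat-masked, with 40, 0 and 0 masked bases of 180.

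*beat-Ia* spans 2L 16049965 to 16081684 on the plus strand. In *fru P1* males its gene body was covered over 2.52, 1.61, 14.4 and 0% at 48hr APF, 52.5, 50.3, 53.1 and 60.8% in 1-day flies and 39.2, 42.2, 32.1 and 36.4% in 10–12 day flies. In *fru P1* females it was covered over 0, 0, 1.18 and 0% at 48hr APF, 30.1, 45.5, 67.5 and 25.1% in 1-day flies and 32.4, 26.3 and 18.6% in 10–12 day flies. Every adult library was thus above every library from 48hr APF, and the 1-day and 10–12 day females overlapped. The *elav* neurons of 1-day adults, at 57.1, 64.6, 35.6 and 44.7% in males and 49.3, 26.8, 42.5 and 56.8% in females, were in the range of the adult *fru P1* libraries. The difference between 1-day adults and 48hr APF was 49.6 points in males (54.2 ± 4.55% against 4.63 ± 6.60%, SD, n = 4 each as for all values with an SD except n = 3 in 10–12 day females, SE of the difference 8.54, limma adjusted p = 0.00227) and 41.7 points in females (42.0 ± 19.0% against 0.294 ± 0.588%, SE 8.54, limma adjusted p = 0.00617).

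The window around the *beat-Ia* TSS followed the gene body. It was free of peaks in the 4 male libraries from 48hr APF and in 3 of the 4 female ones, with 1.65% in the other. In 1-day *fru P1* males it was covered over 63.9, 52.9, 65.8 and 55.9%, and in 10–12 day males over 59.6, 40.8, 39.7 and 18.3%. In females the values were 28.5, 77.9, 78.1 and 21.2% in 1-day and 30.7, 38.1 and 32.7% in 10–12 day adults. The spread among the 1-day females was wide, but no adult library reached down to the pupal range. The difference between 1-day adults and 48hr APF was 59.6 points in males (SE 11.3, limma adjusted p = 0.00148) and 51.0 points in females (SE 11.3, limma adjusted p = 0.00335). In *elav* neurons the window was covered over 55.4, 78.3, 44.3 and 75.2% in males and 48.4, 34.2, 64.3 and 53.3% in females.

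Its neighbor *beat-Ic* (2L 16000291 to 16041703) had gene body coverages of 0, 1.97, 17.3 and 6.51% in 48hr APF males, 44.4, 46.5, 42.4 and 48.8% in 1-day males and 35.7, 26.0, 31.1 and 23.5% in 10–12 day males. The female values were 0, 1.98, 0 and 6.51% at 48hr APF, 39.9, 45.1, 55.5 and 31.3% in 1-day flies and 15.9, 25.1 and 20.7% in 10–12 day flies. In males all adult libraries were above the pupal ones, 1 of which, replicate 3, stood at 17.3%. In females the same held, and every 10–12 day library was also below every 1-day library. The difference between 1-day adults and 48hr APF was 39.1 points in males (45.5 ± 2.73% against 6.45 ± 7.74%, SE 6.64, limma adjusted p = 0.00209) and 40.8 points in females (42.9 ± 10.1% against 2.12 ± 3.07%, SE 6.64, limma adjusted p = 0.00109). In *elav* neurons *beat-Ic* was covered over 51.1, 26.7, 36.7 and 26.9% in males and 34.8, 32.8, 30.2 and 29.7% in females.

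The window at the *beat-Ic* TSS was covered over 0, 0, 3.33 and 0% in 48hr APF males, 55.2, 52.1, 41.2 and 42.2% in 1-day males and 12.9, 28.3, 49.9 and 20.1% in 10–12 day males. Females stood at 0, 0, 0 and 4.80% at 48hr APF, at 21.6, 22.4, 22.1 and 22.6% in 1-day flies and at 5.05, 31.9 and 14.7% in 10–12 day flies. In both sexes the adult libraries did not overlap with those from 48hr APF. The difference of 46.8 points between 1-day and 48hr APF males passed the test (limma adjusted p = 0.00331), while that of females, 22.2 ± 0.422% against 1.2 ± 2.40%, did not. In *elav* neurons the window was covered over 12.5, 27.3, 67.2 and 18.7% in males and 33.6, 11.9, 17.3 and 5.73% in females.

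*beat-IIIc*, the longest gene of the second cluster (2L 17187637 to 17260734, minus strand), was covered over 0, 0, 7.33 and 2.91% in 48hr APF males, 52.2, 45.5, 49.9 and 66.7% in 1-day males and 34.9, 34.5, 26.9 and 40.1% in 10–12 day males. Female coverages were 0, 0.921, 0 and 0.579% at 48hr APF, 40.6, 43.0, 44.8 and 33.3% in 1-day flies and 17.4, 17.2 and 23.7% in 10–12 day flies. The 3 stages did not overlap in either sex, with 1-day adults highest and 48hr APF lowest. In 1-day adults *beat-IIIc* was higher than at 48hr APF by 51.0 points in males (53.6 ± 9.20% against 2.56 ± 3.46%, SE 5.98, limma adjusted p = 8.1e-05) and 40.0 points in females (40.4 ± 5.05% against 0.375 ± 0.455%, SE 5.98, limma adjusted p = 0.000559). It was also the one member called between 10–12 day and 48hr APF males, at 34.1 ± 5.46% against 2.56 ± 3.46% (31.5 points, limma adjusted p = 0.00778). In *elav* neurons it was covered over 39.3, 38.5, 28.9 and 36.4% in males and 33.8, 27.6, 23.2 and 34.0% in females.

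The other genes of the clusters moved the same way. *beat-IIIa*, which shares its span with *CG34106* so that coverage of either cannot be told apart from the other, stood at 36.6 ± 2.85% in 1-day males against 0.409 ± 0.510% at 48hr APF (36.2 points, limma adjusted p = 0.000648). In females it stood at 27.8 ± 7.65% in 1-day adults, and all 4 libraries from 48hr APF were at 0 (limma adjusted p = 0.00288). *beat-IIIb* was called in both sexes, at 32.1 ± 14.7% in 1-day against 1.09 ± 2.17% in 48hr APF males (31 points, limma adjusted p = 0.0430) and at 33.8 ± 6.60% against 0% in females (33.8 points, limma adjusted p = 0.0148). *beat-Ib* differed from the rest in that it was covered at 48hr APF too, over 19.2 ± 4.22% in males and 16.1 ± 5.59% in females. It was called in females only (40.9 ± 3.68% in 1-day adults, 24.8 points, limma adjusted p = 0.0186), and the 20.8-point difference in males did not pass. The male calls of *beat-IIIb* and the female call of *beat-Ib* depended on single libraries. With 1 library left out, *beat-IIIb* passed only without 1-day male replicate 1 (limma adjusted p = 0.0156, up to 0.123 without others), and *beat-Ib* missed the threshold without 48hr APF female replicate 3 or 4 or 1-day female replicate 3 (limma adjusted p up to 0.0572). The calls of *beat-Ia*, *beat-Ic*, *beat-IIIa* and *beat-IIIc* held in both sexes with each library left out in turn, with adjusted p of 0.00015 to 0.0302.

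**Figure D2:**
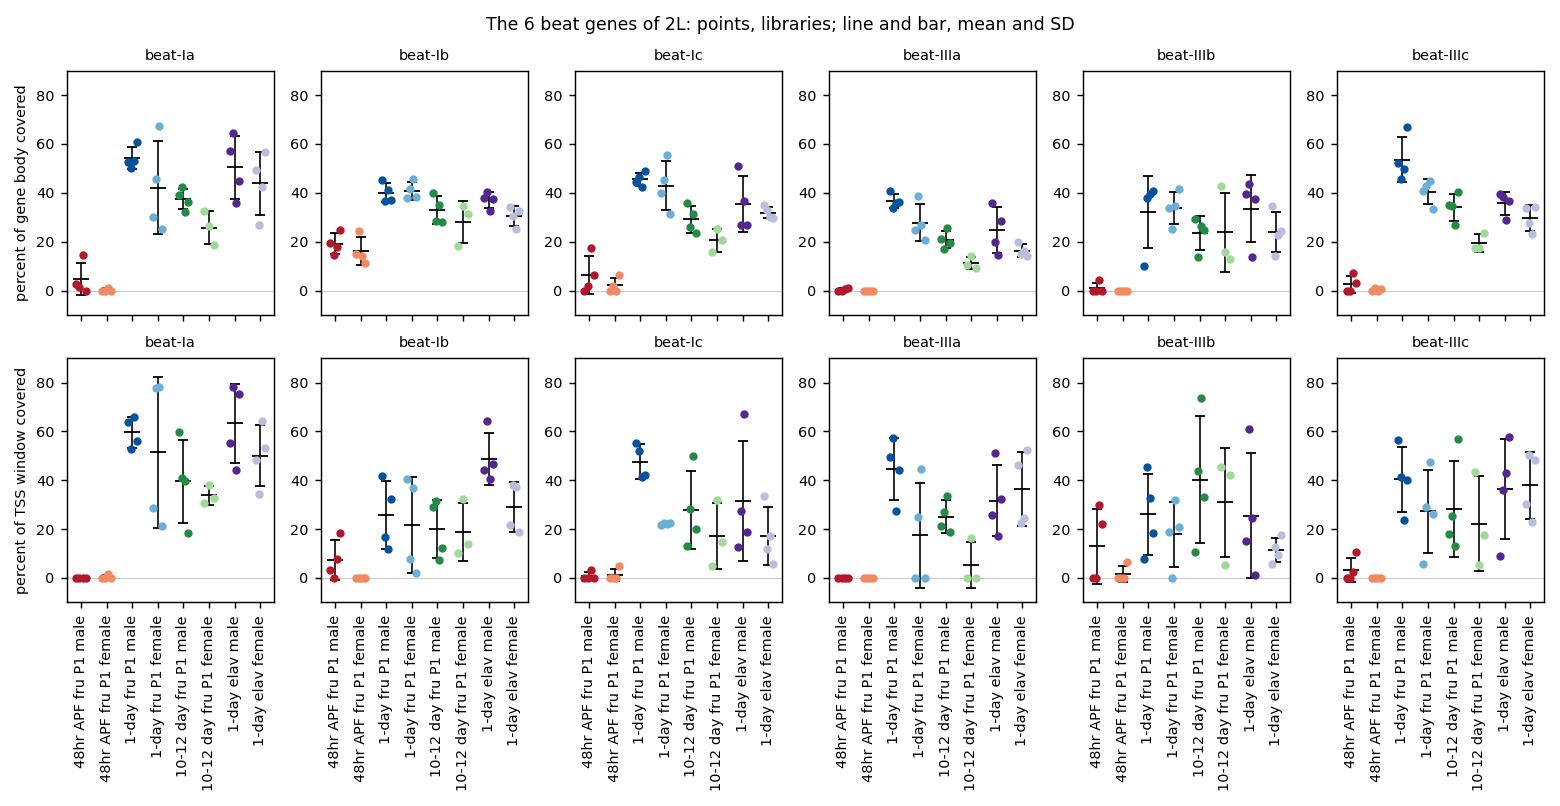
Percentage of the gene body and of the TSS window covered by H3K9me3 peaks for the 6 *beat* genes on 2L, with a point per library and the mean and SD for each of the 8 conditions. Apart from *beat-Ib*, gene body means at 48hr APF are between 0 and 6.45%, and those of 1-day *fru P1* males between 32.1 and 54.2%.

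A count over bases gives the same picture without averaging. Of the bases of *beat-IIIa*, 98.4% lay under no peak in any library from 48hr APF, and the shares for *beat-IIIb*, *beat-IIIc*, *beat-Ia* and *beat-Ic* were 95.7, 88.3, 80.3 and 70.6%, against 32.5% for *beat-Ib*. In the first 5 genes no base was covered in 4 or more of the 8 libraries. The 6 genes had 38.6 to 40.2% GC (median 39.7%) and 16.3 to 22% repeat-masked bases (median 18.3%), against 36.7 to 44.5% GC (median 42.4%) and 13.1 to 43.0% masked bases (median 17.4%) in the other 16 *beat* and *side* genes. The part of base composition in the coverage was not tested.

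The near absence of peaks extended beyond the genes. In the 50 kb on each side of *beat-Ia*, coverage was 48.0 ± 4.36% in 1-day against 5.25 ± 4.81% in 48hr APF males, and 47.9 ± 7.24% against 1.31 ± 1.80% in females. Around *beat-IIIc* it was 44.7 ± 2.14% against 2.68 ± 2.38% in males and 38.8 ± 8.5% against 0.580 ± 0.774% in females. The flanks of *beat-Ia* hold all of *beat-Ic*, and those of *beat-IIIc* hold a part of *beat-IIIa*. The flank values are thus in part values of other members with the same change. With this limit, the genes shared the level of the surrounding chromatin at both stages. Of the runs of 10 kb bins with little coverage at 48hr APF, 1 of 140 kb (16020001 to 16160000) held *beat-Ia* and the second part of *beat-Ic*, and 1 of 330 kb (16970001 to 17300000) held the 3 *beat-III* genes. *beat-Ib* and the first part of *beat-Ic* lay before the shorter run. In the longer run coverage was 1.88 ± 2.16% in pupal males and 0.475 ± 0.569% in pupal females, 48.0 ± 5.62% in 1-day males and 41.6 ± 3.89% in 1-day females, and 27.9 ± 2.61% in 10–12 day males and 19.7 ± 1.77% in 10–12 day females, while *elav* males had 36.9 ± 6.18% and *elav* females 31.1 ± 0.687%. All other such runs on 2L had little coverage in adults too, with means of at most 3.36% in any adult condition. Several of them lay between positions 22400001 and 23510000. Only uniquely aligned reads were kept, and the paper states that short reads cannot be placed uniquely in repetitive sequence. The part of this in the low coverage of these other runs was not tested.

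Such a change in large regions was rare on the autosomes. Of 2178 windows of 50 kb on 2L, 2R, 3L and 3R, 10 (0.459%) had under 5% coverage at 48hr APF and at least 25% in 1-day adults in both sexes, limits that were chosen after the values were seen. All 10 lay between positions 16050001 and 17850000 of 2L. They held *beat-Ia*, *beat-IIIa* and *beat-IIIc* of the 40 members, and also *CadN* and *CadN2*, which encode N-cadherins, homophilic adhesion molecules of axons. *CadN2* was covered over 43.1 ± 1.47% in 1-day against 6.47 ± 5.56% in 48hr APF males and 42.1 ± 3.65% against 3.99 ± 1.67% in females. When peaks under 1.5-fold enrichment were left out, 15 windows met the limits, of which 8 lay between 16 and 18 Mb of 2L. The 10 windows lay in separate blocks of this part of 2L. Genes that share a block are not independent observations of a change. Whether the blocks are independent of one another was not tested.

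**Figure D3:**
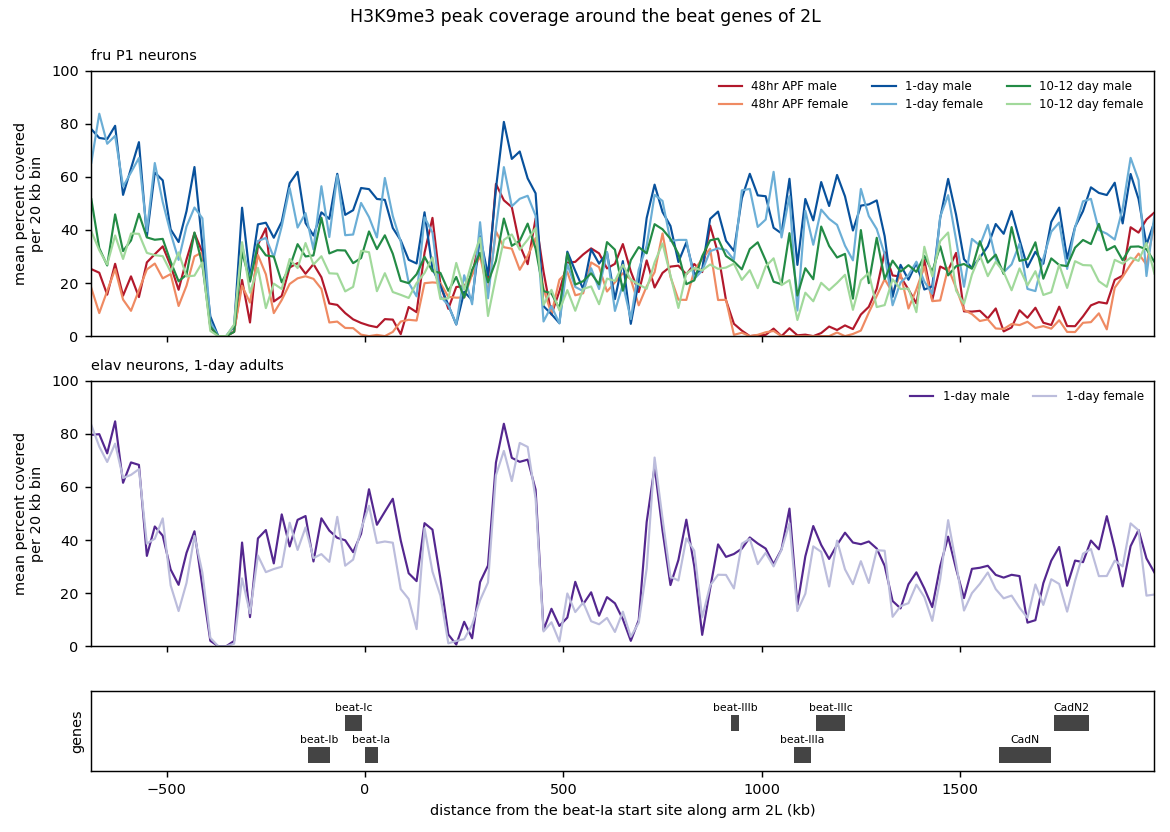
Mean percentage of 20 kb bins covered by H3K9me3 peaks along 2L, against the distance from the start of *beat-Ia* in kb, with the 6 *fru P1* conditions above, the 2 *elav* conditions below, and the genes as bars. The lines for 48hr APF lie near 0 over the *beat-Ia* and *beat-III* genes, where the adult lines are mostly between 15 and 60%.

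Over all 40 members, 7 gene bodies were called between 1-day and 48hr APF *fru P1* males, where 1.49% of all genes tested were, and 9 between females, where 4.68% of all genes were. All 16 calls were higher in 1-day adults, and 15 of them were of *beat* and *side* genes. The 22 *beat* and *side* genes had a median difference of 18.8 points in males and 19.8 points in females, and 20 and 21 of them were higher in 1-day adults. The 18 other guidance genes had medians of 0.996 and −0.322 points, with 11 and 8 higher, beside medians of 5.57 and 6.16 points over all genes tested. The 6 *beat* genes on 2L, with medians of 37.6 and 36.9 points, and the other 16 *beat* and *side* genes, with 9.45 and 16.5 points, both lay above the 11 other guidance genes on 2L, 2R, 3L and 3R, with 3.9 and −0.108 points. When each library was scaled to its own coverage of these arms, 2 members remained called in males (*beat-IIIa*, *beat-IIIc*) and 6 in females (*beat-Ia*, *beat-Ic*, *beat-IIIa*, *beat-IIIc*, *side-VI* and *Ten-a*). Without 48hr APF male replicate 1 or 3, or 1-day male replicate 2, 3 or 4, the male count was 4. When peaks under 1.5-fold enrichment were left out, 4 members remained called in males (*beat-Ia*, *beat-Ic*, *beat-IIIa* and *beat-IIIc*) and 1 in females, *Ten-a*, so that in females every call of a *beat* or *side* gene was lost. With only peaks of a −log10 p of at least 2, which covered a median of 0.981% of the gene bodies per library, no member was called in either sex. A difference between males and females in this change did not pass for the 6 *beat* genes on 2L (limma interaction, adjusted p of 0.918 or more).

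The *side* gene with the largest difference between stages in females was *side-VI* (3R 10972381 to 11050175), whose product binds Beat-V proteins. In *fru P1* males its gene body was covered over 17.2, 14.4, 22.3 and 17.3% at 48hr APF, 48.2, 33.1, 43.7 and 35.5% in 1-day flies and 33.6, 20.0, 27.7 and 30.3% in 10–12 day flies. In females it was covered over 4.37, 3.75, 5.52 and 12.0% at 48hr APF, 39.3, 35.7, 42.3 and 36.5% in 1-day flies and 35.7, 30.5 and 26.0% in 10–12 day flies. Pupal and 1-day libraries did not overlap in either sex, and pupal males were above pupal females. The difference between 1-day and 48hr APF females was 32.0 points (38.4 ± 2.98% against 6.42 ± 3.81%, limma adjusted p = 0.00327), and that between 10–12 day and 48hr APF females was 24.4 points (30.8 ± 4.85% against 6.42 ± 3.81%, limma adjusted p = 0.0488). The second passed only without 10–12 day female replicate 4 once a library was left out, with an adjusted p of up to 0.144. In *elav* neurons the gene was covered over 36.2, 25.4, 16.1 and 31.9% in males and 13.1, 23.3, 19.8 and 19.1% in females.

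The TSS window of *side-VI* did not follow its gene body. In males it was covered over 33.5, 11.6, 0 and 16.3% at 48hr APF, 4.13, 19.6, 17.6 and 0% in 1-day flies and 51.3, 20.6, 40.8 and 52.0% in 10–12 day flies. In females it was covered over 23.7, 5.07, 0 and 25.5% at 48hr APF, 32.2, 13, 13.4 and 5.23% in 1-day flies and 24.2, 21.5 and 32.1% in 10–12 day flies. Only the 1-day and 10–12 day males were apart. This was the one TSS window called between 10–12 day and 1-day males (41.2 ± 14.7% against 10.3 ± 9.74%, limma adjusted p = 0.0393, among 4.5% of all genes), and it passed only without replicate 2 of either stage (adjusted p up to 0.120), with 2 members called without 1-day replicate 2. The *elav* libraries had 27.8, 17.7, 4.65 and 10.9% in males and 5.20, 2.0, 16.2 and 8.25% in females.

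The remaining *beat* and *side* calls were weaker. In males *beat-VI* was at 63.4 ± 5.81% in 1-day adults against 31.9 ± 7.05% at 48hr APF (31.5 points, limma adjusted p = 0.0290) and *side-V* at 40.9 ± 3.81% against 17.5 ± 8.17% (23.4 points, limma adjusted p = 0.0443). In females *side-VIII* was at 48.3 ± 6.42% in 1-day adults against 24.7 ± 4.26% at 48hr APF (23.6 points, limma adjusted p = 0.0458). Groups did not overlap in these 3 comparisons, but each call was lost when most of the libraries were left out singly. *beat-VI* kept it only without 48hr APF male replicate 2 or 1-day male replicate 1 (adjusted p up to 0.0842), *side-V* only without 48hr APF male replicate 4 (up to 0.131) and *side-VIII* only without 48hr APF female replicate 1 (up to 0.114).

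Among the highest in coverage, *beat-Vc* (3R 12746036 to 12783216) was covered at every stage in both sexes. Its gene body was covered over 36.2, 27.1, 53.4 and 40.5% in 48hr APF males, 44.9, 55.0, 65.3 and 57.2% in 1-day males and 36.2, 31.6, 36.7 and 38.1% in 10–12 day males. In females the coverage was 28.1, 34.6, 28.4 and 34.2% at 48hr APF, 60.5, 46.5, 60.2 and 48.2% in 1-day flies and 33.5, 26.6 and 39.2% in 10–12 day flies. The 1-day females stood above both other stages without overlap, whereas in males 48hr APF and 1-day libraries overlapped, and no comparison of *beat-Vc* passed the test. In *elav* neurons it was covered over 52.5, 58.0, 37.7 and 38.1% in males and 46.4, 26.9, 39.7 and 45.3% in females.

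*robo3* (2L 1256417 to 1296596), a receptor for the midline repellent Slit, was covered over 60.5, 41.0, 42.8 and 31.1% in 48hr APF males, 58.4, 54.5, 53.1 and 55.8% in 1-day males and 40.2, 25.1, 41.9 and 47.0% in 10–12 day males. Female libraries had 64.9, 35.6, 45.9 and 51.8% at 48hr APF, 53.7, 48.6, 51.3 and 42.5% in 1-day flies and 26.0, 36.3 and 30.2% in 10–12 day flies. It lies on the same arm as the *beat* clusters, and its pupal and 1-day libraries overlapped in both sexes. In *elav* neurons *robo3* had 34.7, 28.3, 35.3 and 34.8% in males and 33.3, 30.2, 27.5 and 27.4% in females, below every 1-day *fru P1* library, and this difference was not called. The Slit receptor genes *robo1* and *robo2* and *sli* itself were not called in any comparison.

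*Dscam3* (3R 17473935 to 17505667), which encodes a homophilic receptor of the Dscam family, was covered over 46.8, 67.8, 32.5 and 48.5% in 48hr APF males, 56.9, 38.2, 65.1 and 61.4% in 1-day males and 24.3, 47.1, 38.0 and 34.8% in 10–12 day males. In females it stood at 48.8, 37.1, 34.0 and 45.1% at 48hr APF, 66.1, 46.3, 48.0 and 55.3% in 1-day flies and 27.3, 40.2 and 30.8% in 10–12 day flies. The gene bodies of pupae and 1-day adults overlapped in both sexes. The *elav* males had 44.4, 33.5, 34.6 and 31.3% and the *elav* females 24.8, 37.6, 42.4 and 47.8%.

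The TSS window of *Dscam3* went against the gene body. In males the window was covered over 83.0, 61.5, 48.7 and 37.6% at 48hr APF, 34.5, 40.4, 48.3 and 49.1% in 1-day flies and 35.7, 45.3, 18.7 and 13.9% in 10–12 day flies. In females it was covered over 71.5, 69.7, 55.4 and 56.8% at 48hr APF, 36.1, 15.0, 9.62 and 6.88% in 1-day flies and 31.9, 22.2 and 65.7% in 10–12 day flies. The 1-day and 48hr APF females did not overlap and differed by −46.5 points (16.9 ± 13.2% against 63.4 ± 8.44%, limma adjusted p = 0.00580), a call that held with each library left out. It was lost with only peaks of a −log10 p of at least 2, without peaks under 1.5-fold enrichment and in windows of 1 kb. The males overlapped between these stages. In *elav* neurons the window had 18.7, 53.1, 30.9 and 41.9% in males and 0, 13.7, 18.8 and 9.07% in females.

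The TSS windows were tested in the same way. Between 1-day and 48hr APF males, 6 members were called, where 4.68% of all genes were, and between females 3 were called, where 9.92% of all genes were, so that in females the members' share was no higher than that of all genes. In males *beat-Ia*, *beat-Ic*, *beat-IIIa* (44.5 ± 12.7% in 1-day adults, all 4 pupal libraries at 0, limma adjusted p = 0.00439), *beat-IIIc* (40.4 ± 13.4% against 3.25 ± 5.00%, limma adjusted p = 0.0351) and *side-V* (37.0 ± 9.33% against 2.36 ± 4.72%, limma adjusted p = 0.0252) were higher in 1-day adults. *beat-IIa* was lower, at 18 ± 15.7% against 59.9 ± 27.1% (limma adjusted p = 0.0375), but its groups overlapped. In females the calls were *beat-Ia*, *Dscam3* and *Ephrin*. With windows of 1 kb, 1 member was called in males and 0 in females, and with only peaks of a −log10 p of at least 2 none was called in either sex. When peaks under 1.5-fold enrichment were left out, the male calls of *beat-Ia*, *beat-Ic*, *beat-IIIa* and *beat-IIa* and the female calls of *beat-Ia* and *Dscam3* were lost. The male count was 3 without 48hr APF male replicate 1 or 1-day male replicate 4, and 4 without 48hr APF male replicate 3 or 4 or 1-day male replicate 3. *beat-IIIc* was called only without 1-day male replicate 3 (adjusted p up to 0.114), *side-V* only without 48hr APF male replicate 2 or 4 or 1-day male replicate 1 or 2 (up to 0.0830), and *beat-IIa* only without 48hr APF male replicate 3 or 1-day male replicate 1 or 2 (up to 0.127).

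Most members had less coverage in 10–12 day than in 1-day adults, but no gene body was called. Between 10–12 day and 1-day *fru P1* adults, limma called 0 gene bodies in males and 0 in females at the adjusted threshold, where 1.38 and 3.59% of all genes were called, with 10 and 18 members at an unadjusted p of 0.05 or less. Only 8 members in males and 3 in females were higher in the older adults, and the median differences were −11.7 and −12.9 points, against −0.422 and −2.96 points over all genes. In the TSS windows 0 members were called in females by limma (10.2% of all genes), with 2 at an unadjusted p of 0.05 or less.

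Relative to 48hr APF, 10–12 day adults had 1 gene body called in males (*beat-IIIc*, 0.841% of all genes) and 2 in females (*side-VI* and *Ten-a*, 1.74% of all genes). The 6 *beat* genes on 2L were all higher in 10–12 day adults in both sexes, by medians of 22.5 points in males and 18.7 points in females. Without any 1 of 6 of the 7 female libraries, the exception being 10–12 day replicate 4, 1 call was left in females, *Ten-a*. Limma called 0 TSS windows in males and 0 in females (1.89 and 1.99% of all genes), with 13 and 4 at an unadjusted p of 0.05 or less.

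Taken as a set, the *beat* and *side* genes stood below the other guidance genes in pupae and mostly above them later, a description with no test. The set includes the 6 *beat* genes on 2L, which are not all independent and which, apart from *beat-Ib*, had nearly no peaks at 48hr APF. Medians without these genes were not taken, so their part in the lower pupal medians of the set was not tested. With the members on chromosomes 4 and X left out, the median gene body coverage of the 22 *beat* and *side* genes was 24.3 ± 7.09% at 48hr APF in males, against 33.2% for the 11 others, and 23 ± 2.88% against 34.5% in females. In 1-day *fru P1* adults it was 45.3 ± 1.89% against 37.9% in males and 41.1 ± 3.65% against 37.5% in females. The 10–12 day adults had 31.8 ± 2.63% against 26.9% in males and 24.1 ± 2.66% against 25.4% in females, and *elav* neurons 32.3% against 19.2% in males and 27.0% against 17.1% in females. Of the 31 libraries, 19 had the higher median for *beat* and *side* genes. With all 40 members the mean difference was 6.12 points (SD 10.6, from −15.7 to 21.8, higher in 23 of 31 libraries), which includes the low values of the others on X in males.

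**Figure D4:**
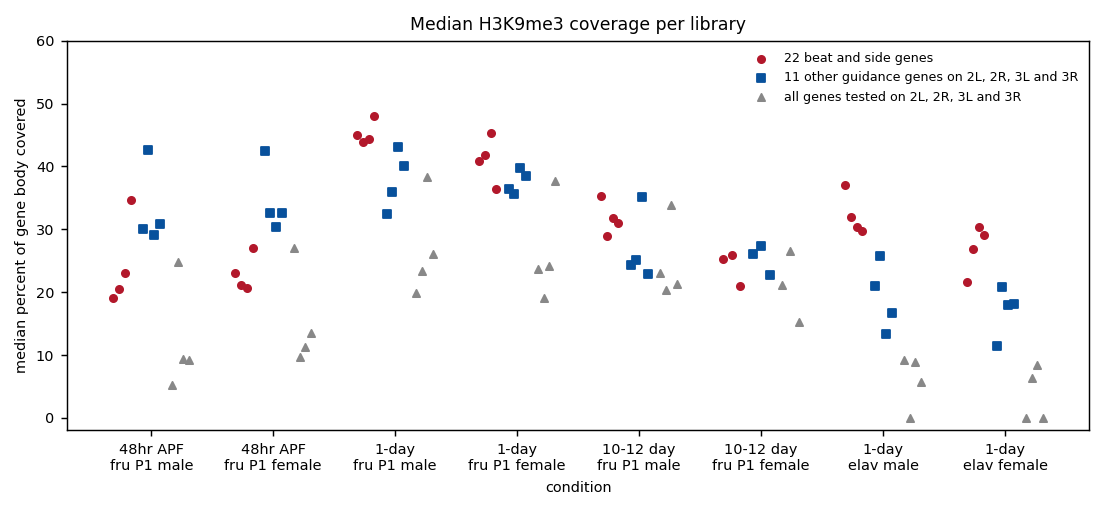
Median gene body coverage in each library (points) of the 22 *beat* and *side* genes, the 11 other guidance genes on 2L, 2R, 3L and 3R, and all genes tested on those arms, by condition. The *beat* and *side* points are on average below those of the other guidance genes at 48hr APF (24.3 against 33.2% in males). In *elav* neurons they are above them (32.3 against 19.2% in males). The 22 genes include the 6 *beat* genes on 2L.

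Between the sexes, gene body calls fell on the 3 members on X. Here 2 members were called at 48hr APF (1.83% of all genes), 3 in 1-day *fru P1* adults (3.74%), 3 in 10–12 day adults (4.48%) and 3 in *elav* neurons (1.27%), all lower in males. The 37 members on other arms had no call. On X, 11.1, 23.1, 25 and 8.18% of the genes tested were called in these comparisons. The coverage of X as a whole was 2.14 ± 1.54% in males against 22.4 ± 3.73% in females at 48hr APF, 4.43 ± 1.63% against 28.9 ± 1.89% in 1-day and 3.44 ± 0.933% against 24.5 ± 3.08% in 10–12 day adults, and 5.37 ± 1.46% against 22.6 ± 1.37% in *elav* neurons. *Ten-a* was below the level of the female X at 48hr APF, at 4.93 ± 2.35%. Whether the 3 genes hold less H3K9me3 in males or only fewer called peaks was not tested. The methods of the study state that few peaks could be called on the male X under any setting. When only peaks with a −log10 p of at least 2 were used, no gene body or TSS window was called between the sexes, and when peaks under 1.5-fold enrichment were left out, 0, 1, 0 and 3 gene bodies were.

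The Netrin genes *NetA* (X 14604012 to 14653928) and *NetB* (X 14686038 to 14749376) encode secreted cues that attract or repel axons. The stretch of *NetA* shown here (chrX:14621092-14621271, plus strand of dm6, intron) was covered in 14 of 15 female and 0 of 16 male libraries over the 89 bases in capitals. The stretch of *Ten-a*, a teneurin that matches synaptic partners (chrX:12094907-12095086, plus strand, intron), lay in 876 bases covered in 7 of 7 adult *fru P1* female libraries and in 0 of 20 libraries from males and 48hr APF females, and is in capitals throughout.
NetA: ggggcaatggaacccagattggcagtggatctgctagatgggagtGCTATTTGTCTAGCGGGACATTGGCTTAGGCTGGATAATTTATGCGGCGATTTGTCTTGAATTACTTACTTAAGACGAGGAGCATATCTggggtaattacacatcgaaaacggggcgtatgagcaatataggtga
Ten-a: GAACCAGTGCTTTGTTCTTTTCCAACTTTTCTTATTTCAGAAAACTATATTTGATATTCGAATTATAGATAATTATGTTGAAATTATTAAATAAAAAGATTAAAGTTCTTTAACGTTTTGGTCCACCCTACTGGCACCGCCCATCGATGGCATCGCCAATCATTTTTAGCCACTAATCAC
Both were picked as bases covered in the most libraries of the first group and in none of the second, so this choice set the separation. For *Ten-a*, the *elav* female libraries were in neither group.

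*NetA* was covered in males over 0, 0, 1.03 and 0% at 48hr APF, 3.35, 5.66, 5.19 and 1.84% in 1-day flies and 0, 0.970, 1.2 and 2.12% in 10–12 day flies. Female values were 34.5, 35.2, 30.8 and 44.9% at 48hr APF, 37.4, 47.1, 34.3 and 29.1% in 1-day flies and 32.4, 28.9 and 23.6% in 10–12 day flies. In *elav* neurons males had 4.43, 7.47, 7.04 and 4.88% and females 48.0, 41.5, 33.9 and 48.3%. No male library came near a female one. The male minus female differences were −36.1 points at 48hr APF (0.258 ± 0.517% against 36.3 ± 6.04%, limma adjusted p = 0.000118), −33.0 points in 1-day adults (4.01 ± 1.76% against 37.0 ± 7.55%, adjusted p = 0.00021), −27.2 points in 10–12 day adults (1.07 ± 0.871% against 28.3 ± 4.45%, adjusted p = 0.00442) and −37.0 points in *elav* neurons (5.95 ± 1.52% against 42.9 ± 6.78%, adjusted p = 0.000136).

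*NetB* had male values of 1.39, 3.16, 0.846 and 1.89% at 48hr APF, 2.08, 2.29, 1.28 and 3.20% in 1-day flies and 0.470, 1.48, 0 and 4.18% in 10–12 day flies. In females they were 33.5, 30.4, 24.1 and 31.8% at 48hr APF, 41.4, 34.0, 51.4 and 39.1% in 1-day flies and 21.9, 34.2 and 29.6% in 10–12 day flies. *elav* males had 2.68, 2.13, 5.47 and 5.30%, against 32.1, 54.1, 35.4 and 28.8% in *elav* females. Again the sexes did not overlap, with differences of −28.1, −39.3, −27.0 and −33.7 points in the same 4 comparisons (limma adjusted p of 0.00287, 5.6e-05, 0.0068 and 0.000744). The gene body calls of both Netrin genes held with each library left out in turn, with adjusted p of up to 0.0488.

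The TSS windows of the Netrin genes varied more. That of *NetA* was covered in males over 0, 13.1, 3.17 and 0% at 48hr APF, 27.6, 5.77, 9.83 and 14.5% in 1-day flies and 0, 4.73, 10.0 and 3.37% in 10–12 day flies. In females it had 38.5, 78.0, 18.2 and 54.9% at 48hr APF, 30.1, 54.9, 24.4 and 42.5% in 1-day flies and 49.9, 31 and 62.2% in 10–12 day flies. *elav* males had 40.5, 50.04, 30.9 and 19.6%, against 68.0, 46.5, 28.6 and 66.8% in *elav* females. The sexes overlapped in 1-day *fru P1* adults and in *elav* neurons.

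That of *NetB* was covered in males over 0, 14.2, 0 and 0% at 48hr APF, 5.93, 10.7, 3.38 and 0% in 1-day flies and 0, 9.67, 0 and 20.7% in 10–12 day flies. Females had 35.8, 62.1, 19.0 and 36.3% at 48hr APF, 27.4, 5.27, 17.4 and 41.0% in 1-day flies and 38.4, 39.8 and 62.2% in 10–12 day flies, and *elav* neurons 3.33, 9.83, 37.2 and 17.0% in males and 82.6, 26.1, 23.2 and 67.3% in females. The *fru P1* sexes were apart at 48hr APF and in 10–12 day adults only.

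In the TSS windows, 1 member was called between the sexes at 48hr APF (2.72% of all genes), 1 in 1-day adults (5.26%), 3 in 10–12 day adults (6.7%) and 0 in *elav* neurons by limma (2.12%, with 4 members at an unadjusted p of 0.05 or less). These were *NetA* at 48hr APF (4.07 ± 6.22% in males against 47.4 ± 25.3% in females, adjusted p = 0.0165), *Ten-a* in 1-day adults, and *NetA* (4.53 ± 4.16% against 47.7 ± 15.7%, adjusted p = 0.0156), *NetB* (7.59 ± 9.85% against 46.8 ± 13.3%, adjusted p = 0.0333) and *beat-Va* (54.3 ± 10.1% against 15.6 ± 10.6%, adjusted p = 0.0435) in 10–12 day adults. *beat-Va* was the one member higher in males, and lost its call without any 1 of the 7 libraries (adjusted p of 0.0585 to 0.191). The call of *NetA* was lost at 48hr APF without male replicate 1, 3 or 4 or female replicate 2 (up to 0.0999) and in 10–12 day adults without female replicate 1 or 4 (up to 0.109), and that of *NetB* was kept only without male replicate 4 or female replicate 1 (up to 0.181). The counts were 0 to 2 in each of the 3 *fru P1* comparisons when 1 library was left out. Without female replicate 3 they were 2 in pupae and 2 in 1-day adults, and in 10–12 day adults 1 without male replicate 1, 2 or 3 or female replicate 3 and 0 without female replicate 4.

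*Ten-a* (X 12043698 to 12335214), the longest member with 291517 bp, had little gene body coverage in males at every stage and in pupal females, and more in adult females. In males it was covered over 0.314, 2.42, 0.920 and 2.65% at 48hr APF, 2.22, 1.77, 1.57 and 0.0799% in 1-day flies and 3.77, 0.472, 1.62 and 2.31% in 10–12 day flies. In females it was covered over 3.65, 2.34, 6.21 and 7.51% at 48hr APF, 30.1, 29.5, 30.6 and 30.6% in 1-day flies and 21.8, 23 and 19.9% in 10–12 day flies. The 3 female stages did not overlap, the male stages did, and at 48hr APF the sexes overlapped, unlike for the Netrin genes. The difference between 1-day and 48hr APF was not called in males (1.41 ± 0.929% against 1.58 ± 1.14%) and was 25.3 points in females (30.2 ± 0.494% against 4.93 ± 2.35%, limma adjusted p = 9.81e-05). With nearly no peaks called on the male X at any stage, a change in males could hardly have appeared. A test of this change between the sexes, given among the flagged results, therefore cannot decide whether they differed.

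Coverage of *Ten-a* in females was still above pupae in 10–12 day adults, at 21.6 ± 1.57% against 4.93 ± 2.35% (16.7 points, limma adjusted p = 0.00819). Males were below females by 28.8 points in 1-day adults (limma adjusted p = 5.83e-06), 19.5 points in 10–12 day adults (0.00117) and 15.2 points in *elav* neurons (0.0117). The 50 kb flanks of the gene went the same way, at 39.9 ± 5.54% in 1-day against 13.9 ± 5.21% in 48hr APF females. With the gene cut into 10 parts of equal length, coverage in 1-day females was lowest in part 7 from the TSS (16.3%) and highest in parts 1 and 2 (41.2 and 47.0%). The gene overlaps 14 other annotated genes, whose coverage cannot be told apart from its own.

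The TSS window of *Ten-a* was covered in males over 0, 20.8, 5.58 and 10.8% at 48hr APF, 0, 20.2, 13.1 and 8.65% in 1-day flies and 0, 13.2, 0 and 3.42% in 10–12 day flies. In females it had 45.8, 22.2, 45.4 and 13.6% at 48hr APF, 47.6, 64.9, 31.3 and 57.4% in 1-day flies and 19.4, 55.7 and 38.1% in 10–12 day flies. *elav* males had 30.5, 4.78, 0 and 0%, against 7.03, 51.5, 42.6 and 19.3% in *elav* females. Thus, unlike the gene body, the window was covered in pupal females already. The sexes were apart and called in 1-day adults (10.5 ± 8.45% against 50.3 ± 14.5%, −39.8 points, limma adjusted p = 0.0116), a call that was lost without male replicate 1 or female replicate 2 (adjusted p up to 0.0548).

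Between the cell types of 1-day adults few members were called. In males limma called 0 gene bodies (0.0361% of all genes, 19 members at an unadjusted p of 0.05 or less) and 0 TSS windows (0.152%, 3 members), and in females 1 gene body (1.96% of all genes, 21 members) and 0 TSS windows (1.92%, 1 member). The call was *Ten-a*, covered over 30.2 ± 0.494% in *fru P1* against 16.8 ± 3.15% in *elav* females (13.8, 17.3, 21.0 and 15.2%), without overlap (13.4 points, SE 3.17, limma adjusted p = 0.0303). It was lost without *fru P1* replicate 1 or 4 or *elav* replicate 1, 2 or 4 (adjusted p up to 0.105), and 3 members were called without *fru P1* replicate 2. In *elav* males *Ten-a* stood at 2.16, 0.952, 2.33 and 1.02%. Of the 40 members, 31 in males and 31 in females were higher in *fru P1* neurons, by medians of 10.5 and 13.4 points, beside 5.96 and 9.19 points over all genes tested. All *elav* libraries had fewer ChIP tags (2295291 to 3012794) than any 1-day *fru P1* library (3856798 or more), and the part of this in the differences was not tested.

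The 4 members on chromosome 4 are *PlexA* and *PlexB*, receptors for semaphorins, and *Eph* and *Ephrin*, a receptor tyrosine kinase and its membrane-bound ligand. They ran against the *beat* genes, with lower coverage in 1-day *fru P1* adults than at 48hr APF, and no gene body among them was called. Chromosome 4 as a whole was covered over 15.1 ± 6.13% in 1-day against 22.8 ± 10.6% in 48hr APF males, and 7.91 ± 2.19% against 19.8 ± 7.67% in females. The stretch of *Eph* shown here (chr4:619425-619604, plus strand, intron) lay in 290 bases covered in 12 of the 16 libraries from 48hr APF *fru P1* and 1-day *elav* neurons and in 0 of the 8 from 1-day *fru P1* neurons. These bases were picked as covered in the most of the 16 libraries and in none of the 8, so this choice set the separation. The *fru P1* libraries from older adults were in neither group.
Eph: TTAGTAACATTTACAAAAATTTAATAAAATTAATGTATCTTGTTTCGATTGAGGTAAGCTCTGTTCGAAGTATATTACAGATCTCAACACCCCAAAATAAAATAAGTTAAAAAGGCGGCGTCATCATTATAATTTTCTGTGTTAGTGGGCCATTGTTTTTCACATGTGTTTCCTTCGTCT
With 59 masked bases of 180, this stretch is in part repeat-masked.

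*Eph* (4 610684 to 622470) was covered in males over 34.5, 1.70, 55.7 and 26.5% at 48hr APF, 18.6, 43.5, 0 and 2.38% in 1-day flies and 9.73, 11.4, 3.37 and 0% in 10–12 day flies. In females it was covered over 2.04, 28.5, 32.8 and 32.6% at 48hr APF, 0, 7.47, 0 and 0% in 1-day flies and 0, 0 and 2.30% in 10–12 day flies. *elav* neurons had 18.2, 14.7, 24.3 and 62.2% in males and 23.2, 58.2, 20.8 and 30.4% in females. Libraries of 1 condition spread widely, and only *elav* and 1-day *fru P1* females were fully apart.

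*Ephrin* (4 571755 to 580122) had 39.9, 4.91, 67.7 and 43.3% in 48hr APF males, 27.2, 7.84, 0 and 6.21% in 1-day males and 14.4, 7.55, 16.8 and 35.3% in 10–12 day males. Female libraries had 23.6, 49.99, 67.6 and 28.1% at 48hr APF, 0, 27.2, 0 and 11% in 1-day flies and 13.8, 15.5 and 0% in 10–12 day flies. In *elav* neurons it had 31.8, 22.4, 28.8 and 74.0% in males and 37.9, 74.1, 13.7 and 6.48% in females. Its TSS window was called between 1-day and 48hr APF females (7.02 ± 8.14% against 42.3 ± 17.0%, −35.2 points, limma adjusted p = 0.0326), without overlap. This call was lost without 48hr APF replicate 3 or 1-day replicate 1, 3 or 4 (adjusted p up to 0.138).

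*PlexA* (4 1009895 to 1027101) was covered over 29.8, 20.2, 39.9 and 30.2% in 48hr APF males, 5.50, 9.62, 1.58 and 15.0% in 1-day males and 23.9, 23.1, 19.5 and 22.9% in 10–12 day males. In females it had 10.8, 28.9, 36.1 and 29.7% at 48hr APF, 2.55, 15.6, 6.85 and 1.16% in 1-day flies and 4.88, 10.1 and 20.0% in 10–12 day flies. In *elav* neurons it had 47.0, 13, 34.2 and 58.8% in males and 40.1, 54.6, 36.2 and 20.1% in females. In males both other stages were above 1-day adults without overlap. The exons of *PlexA* were covered over 32.0% and its introns over 7.41% on average, the reverse of most *beat* and *side* genes.

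*PlexB* (4 32478 to 43778) had the lowest coverage of all members, with 6.74, 10.1, 12.0 and 12.0% in 48hr APF males, 1.77, 9.69, 8.02 and 1.88% in 1-day males and 14.7, 12.8, 6.57 and 6.26% in 10–12 day males. Females had 6.37, 9.91, 9.62 and 11.8% at 48hr APF, 0% in all 4 libraries of 1-day adults and 0, 2.25 and 10.8% in 10–12 day adults. *elav* males had 0, 8.09, 1.30 and 11.4% and *elav* females 3.66, 3.14, 0 and 0%. Pupal and 1-day females were apart, as were 1-day males and females.

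**Figure D5:**
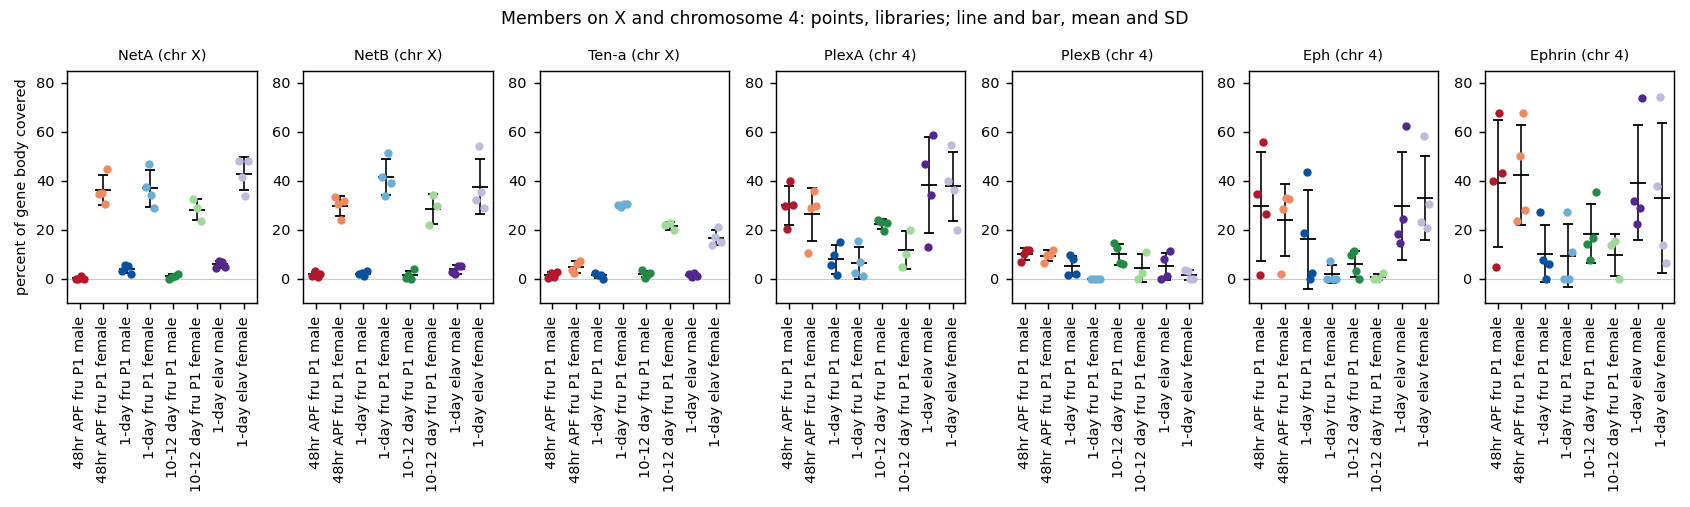
Percentage of the gene body covered by H3K9me3 peaks for the 3 members on X (*NetA*, *NetB*, *Ten-a*) and the 4 on chromosome 4 (*PlexA*, *PlexB*, *Eph*, *Ephrin*), with a point per library and the mean and SD for each condition. The male points on X stay at or under 7.47%, and the points of *Eph* and *Ephrin* spread widely within conditions.

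*unc-5*, which encodes the Netrin receptor for repulsion, had the lowest coverage among members on the large autosomes. In males it was covered over 24.4, 29.6, 12.4 and 11.1% at 48hr APF, 17.8, 19.6, 18.4 and 27.5% in 1-day flies and 9.83, 13.3, 18.8 and 7.60% in 10–12 day flies. In females it was covered over 23.1, 6.96, 8.79 and 23.2% at 48hr APF, 18.4, 18.7, 20.7 and 21.6% in 1-day flies and 23.1, 11.4 and 8.35% in 10–12 day flies. The stages overlapped in both sexes, and *elav* neurons, with 11.7, 17.1, 6.54 and 8.93% in males and 4.36, 6.5, 8.96 and 6.11% in females, were below every 1-day *fru P1* library of the same sex. No comparison of *unc-5* was called, nor any of *fra*, the Netrin receptor for attraction, whose condition means were between 11.8 and 35%.

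The other members without a call in either measure are the following. Among the *beat* and *side* genes, *beat-IIb*, *beat-IV*, *beat-Vb*, *beat-Vc*, *beat-VII*, *side*, *side-II*, *side-III*, *side-IV* and *side-VII* had mean gene body coverages of 21.3 to 42.2% over the 31 libraries. *side*, the partner of *beat-Ia*, stood at 52.3 ± 3.04% in 1-day against 48.4 ± 6.44% in 48hr APF males and at 47.9 ± 11.7% against 41.1 ± 10.3% in females. Thus it was covered in pupae, where *beat-Ia* hardly was. Among the others, *robo1*, *robo2*, *robo3*, *sli*, *fra*, *unc-5*, *PlexA*, *PlexB*, *Eph*, *Dscam1*, *Dscam2*, *Dscam4* and *Ten-m* had means of 5.83 to 41.6%.

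Further genes of guidance were taken from a list of 40 other cues and receptors and a list of 14 genes that signal inside the growth cone. Of the first list, 4 gene bodies were called between 1-day and 48hr APF in each sex (1.49 and 4.68% of all genes in males and females), all higher in 1-day adults, with *Tollo* (55.0 points in males, 45.3 points in females), a Toll family receptor, and *CadN2* (36.6 and 38.1 points) leading, followed by *CadN* in males (27.9 points) and *Con*, which encodes the adhesion protein Connectin, in females (26.3 points). The list's medians were 1.69 and 2.67 points, below those over all genes. Its TSS windows went in both directions. In males 5 were called (4.68% of all genes), 4 higher in 1-day adults, led by *CadN2* (47.9 points) and *Tollo* (47.6 points), and 1 lower, *tutl* (16.0% against 59.7%, −43.7 points), which encodes an immunoglobulin superfamily protein. In females 6 were called (9.92%), *Tollo* (54.3 points) and *CadN2* (50.4 points) higher and 4 lower, led by *Drl-2*, a Wnt receptor gene (31.7% against 71.5%, −39.8 points). Between the sexes 4, 4, 4 and 2 gene bodies were called (1.83, 3.74, 4.48 and 1.27% of all genes). All were on X and lower in males, led at 48hr APF by *Fas2* (−25.5 points), *sdk* (−21.2) and *Ptp10D* (−18.4), genes of adhesion molecules and of a receptor phosphatase. In the same comparisons 4, 3, 2 and 0 TSS windows were called (2.72, 5.26, 6.7 and 2.12% of all genes). Of these, *tutl* on 2L at 48hr APF (59.7% against 24.5%) and *comm3* on 3L in 1-day adults (56.8% against 19.1%) were higher in males. The rest were on X and lower in males. Of the signalling list, 0 gene bodies were called by limma between 1-day and 48hr APF in either sex. In 10–12 day females *Rho1*, a GTPase of the cytoskeleton, was called against 1-day adults (28.2 points) and against 48hr APF (31.8 points), and 5 TSS windows were higher in 10–12 day than in 1-day females (10.2% of all genes called), led by *ena*, *Mical* and *chic*, regulators of actin (44.0, 37.5 and 34.4 points). The muscle marker *Mhc* moved with the *beat* genes, at 56.5% in 1-day against 19.0% in 48hr APF males (37.5 points, limma adjusted p = 0.0202). The 2 muscle markers had median coverages of 56.1% in 1-day against 16.6% in 48hr APF males and 41.7 against 16.3% in females. Of the 3 glia markers, *repo* was called in its TSS window, at 66.0% in 1-day against 10.5% in 48hr APF males (55.5 points, limma adjusted p = 0.00738), and *Gs2*, on X, was lower in its gene body in 1-day females (7.19% against 25.6%, −18.4 points, limma adjusted p = 0.0235). The glia markers had median TSS coverages of 20.1% in 1-day against 10.5% in 48hr APF males and 11.8 against 31.6% in females. The part of muscle and glia in the *beat* result was not tested.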

How the data were processed

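H3K9me3 was profiled by sequential ChIP-seq in *fru P1* and *elav* neurons of sex-sorted animals, with 31 libraries in 8 conditions. The labels call the replicates independent biological replicates. The steps of the authors were trimming (Trimmomatic 0.33), alignment to dm6 (Bowtie2 2.2.5), a filter for unique reads (SAMtools 1.2) and broad peak calls by MACS2 (2.1.1.20160309 per the file headers, 2.1.0 per the submitters' processing notes) at a p of 0.01 for strong and 0.1 for weak regions. The control of a *fru P1* list was the joint input of its sex and stage, and that of an *elav* list was its own input. The deposited lists give for each peak the start, end and length, a pileup signal, a ratio (fold enrichment over the input), and −log10 values of the p-value and the q-value. The headers state that q was not calculated, while the column holds values.

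From the starts and ends, the percentage of each gene body and of the window 3 kb on each side of the TSS (Ensembl release 115) under at least 1 peak was computed for 18164 genes with Python 3.11.15, numpy 2.4.6 and pandas 2.3.3. No read depth enters this measure, so it has no counting interval. Genes above 0 in at least 3 of 31 libraries were fitted with limma 3.58.1 (R 4.3.3, trended empirical Bayes) over all 8 conditions, with 12 comparisons for each measure, Benjamini-Hochberg adjustment within each over all genes tested, and calls at 0.05. The fit was tested on simulated data. Groups of 4 do not overlap at an exact two-sided permutation p of 0.0286, the smallest possible. Same-numbered libraries of different conditions were not related (90 correlations of deviations between −0.151 and 0.192), so no pairing was used. The alternatives were peaks filtered by p or fold enrichment, an arcsine transform, scaling to the covered share of 2L, 2R, 3L and 3R, no filter on genes, fits of the 2 conditions compared, X and 4 left out, TSS windows of 1 kb, all transcript starts, a replicate block, and each library left out in turn.

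The 40 members, the lists of other guidance genes, the signalling genes and the markers were chosen with earlier results of these data known. Values per library were given for the 3 members highest and the 3 lowest in mean gene body coverage, all members on 4 and X, and the 2 called members with the largest difference in each comparison and measure. Of each further list, at most 3 called genes with the largest difference were named. *CadN2*, *CadN* and *Mhc* were also named because they lie beside or moved with the members.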

Additional observations from a re-analysis of the deposited data

Results flagged for a closer look

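Of 152 groups of 4 libraries of the named members, 10 held a library far from the other 3 by Dixon's criterion, of which chance gives about 1 in 20. Most were single libraries with some coverage where the others had none. In such a group any value above 0 is flagged, however small, so the rate of 1 in 20 does not hold for it. For gene bodies, *beat-Ia* stood at 1.18% in 48hr APF female replicate 3 and *NetA* at 1.03% in 48hr APF male replicate 3, with the other 3 libraries of each group at 0, and *Eph* stood at 7.47% in 1-day female *fru P1* replicate 2, again against 0 in the others. *Eph* was low in 48hr APF female replicate 1, at 2.04% against 28.5 to 32.8%, and *robo3* was low in *elav* male replicate 2, at 28.3% against 34.7 to 35.3%. For TSS windows, *beat-Ia* stood at 1.65% in 48hr APF female replicate 3, *beat-Ic* at 3.33% in 48hr APF male replicate 3 and at 4.80% in 48hr APF female replicate 4, and *NetB* at 14.2% in 48hr APF male replicate 2, each with the other 3 libraries at 0. The TSS window of *Ten-a* stood at 30.5% in *elav* male replicate 1, against 0, 0 and 4.78% in the others. The change of *Ten-a* gene body coverage between 48hr APF and 1-day *fru P1* adults differed between males and females by −25.4 points (SE 4.48, limma interaction, adjusted p = 0.0307). Male libraries had nearly no peaks on X at any stage, so a change in males could hardly appear in this test.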

How the results depend on the processing

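Of 827 alternative values for 46 calls of single members, 581 kept the call, 246 lost it and 0 changed sign. Coverage depends on weak peaks, on which the limits of the calls rest, and the cause of each change below was not tested.

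With peaks of a −log10 p of at least 2, 0 gene bodies and 0 TSS windows were called in every comparison that had calls, the difference between the *beat* and *side* median and that of the others over 40 members turned to −0.00602 points from 6.12, and 1 TSS window was called between *fru P1* and *elav* females, against 0. Without peaks under 1.5-fold enrichment, gene body counts between the sexes were 0 of 2 at 48hr APF, 1 of 3 in 1-day and 0 of 3 in 10–12 day adults, those between 1-day and 48hr APF were 4 of 7 in males and 1 of 9 in females, and those between 10–12 day and 48hr APF were 0 of 1 and 0 of 2. TSS counts were then 0 between the sexes at each *fru P1* stage, 2 of 6 between 1-day and 48hr APF males, 0 of 1 between 10–12 day and 1-day males, and 1 against 0 between 10–12 day and 1-day females and between *fru P1* and *elav* females. With peaks of a p of 0.05 or less, chosen after seeing the data, gene body counts were 1 of 2 and 1 of 3 between the sexes at 48hr APF and 10–12 days, 0 of 1 and 0 of 2 between 10–12 day and 48hr APF, and 2 against 1 between *fru P1* and *elav* females. TSS counts were 0 between the sexes at 48hr APF and 10–12 days and between 10–12 day and 1-day males.

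Under the arcsine transform, 4 gene bodies in males and 6 in females were called between 10–12 day and 48hr APF, and TSS counts were 2 between the sexes at 48hr APF, 6 between 1-day and 48hr APF females, 0 between 10–12 day and 1-day males, and 3 in males and 1 in females between 10–12 day and 48hr APF. Scaling to the covered share gave gene body counts of 2 between 1-day and 48hr APF males, 3 between 10–12 day and 48hr APF males and 0 between *fru P1* and *elav* females. It gave TSS counts of 2 between pupal sexes and 0 between 1-day sexes, 1 between 1-day and 48hr APF males, 2 between 10–12 day and 1-day females, and 2 in males and 1 in females between 10–12 day and 48hr APF. Fits of the 2 conditions alone gave 0 gene bodies between the sexes at 48hr APF and in *elav* neurons, 3 between 1-day and 48hr APF males and 0 between *fru P1* and *elav* females, and TSS counts of 0 between the sexes at each *fru P1* stage, 3 between 1-day and 48hr APF males and 0 between 10–12 day and 1-day males. With X and 4 left out, 0 members were called between the sexes in the *fru P1* stages and, for gene bodies, in *elav* neurons, by construction for the genes on X. Gene body counts were then 1 between 10–12 day and 1-day males, 0 between 10–12 day and 48hr APF females and 0 between *fru P1* and *elav* females, and 2 TSS windows were called between 10–12 day and 48hr APF males. With no filter on genes, 1 gene body was called between 10–12 day and 1-day males and 1 TSS window between 10–12 day and 48hr APF males. TSS windows of 1 kb gave 0 between the sexes in 1-day adults, 1 and 0 between 1-day and 48hr APF males and females, 3 and 4 between 10–12 day and 1-day males and females, and 3 and 1 between 10–12 day and 48hr APF. All transcript starts gave 2 in the last comparison in males. The windows low in pupae numbered 21 at 25 kb, 19 of them between 16 and 18 Mb of 2L, and 4 at 100 kb, all 4 there.

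With the replicate number as a block, 1 gene body in place of 2 was called between 10–12 day and 48hr APF females and 0 in place of 1 between *fru P1* and *elav* females, and no other count moved by over 1.5 times.

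With each library left out in turn, gene body counts stayed at 2, 3, 3 and 3 between the sexes, and ranged from 4 to 6 in males and 7 to 9 in females between 1-day and 48hr APF, from 1 to 1 and 1 to 2 between 10–12 day and 48hr APF, stayed at 0 between 10–12 day and 1-day adults and between *fru P1* and *elav* males, and ranged from 0 to 3 between *fru P1* and *elav* females. TSS counts ranged from 0 to 2 between the *fru P1* sexes at each stage, 0 to 1 in *elav* neurons (1 without female replicate 2 or 3), 3 to 5 and 2 to 3 between 1-day and 48hr APF, 0 to 2 and 0 to 1 between 10–12 day and 1-day (1 without 10–12 day female replicate 1), and 0 to 2 in males between 10–12 day and 48hr APF (2 without 10–12 day replicate 2 or 4), and stayed at 0 in females there and between the cell types.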
